A study of Rattus norvegicus with 14 samples.

Results

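The genes described here encode the machinery of synaptic vesicles and of exocytosis, measured by RNA sequencing in the perirhinal cortex, a temporal lobe region needed to tell familiar objects from objects never met before. Members were chosen by symbol. They are the synaptotagmins, extended synaptotagmins, synapsins, syntaxins, syntaxin-binding proteins, Vamp, Snap, Sv2 and complexin genes, the Unc13 and Rims genes, and Syp, Bsn and Pclo. The rule found 72 of the 17905 genes listed in at least 1 of the 3 tables used, and all 72 were present in each table.

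Samples came from male Lister Hooded rats of 350 to 450 g, all kept on food restriction. In the Familiar group (n = 5) the rats explored highly familiar objects in the bow-tie maze on the last day. A trained group of 5 rats met objects there that they had never seen, and is called the new-object group here. The Control group (n = 4) was naive rats that were handled but neither trained nor tested. The caudal perirhinal cortex of trained rats was taken 1 h after the task, and the sequenced animals had been selected partly by RNA quality and by behaviour in the test. Total RNA depleted of ribosomal RNA was sequenced on the Ion Proton. The tissue is a mixture of cells, so that fewer cells of a type and less RNA per cell cannot be told apart.

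Transmitter is released when a vesicle fuses with the plasma membrane. Vesicles are docked and primed at the active zone by Rims, Unc13, Bassoon and Piccolo. A vesicle SNARE (Vamp) then zips up with the membrane SNAREs (syntaxin and Snap25) under the control of complexin, and a synaptotagmin senses the calcium that triggers fusion. Several members of these families act elsewhere in the cell, in traffic through the Golgi, endosomes and lysosomes.

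Each of the 3 tables compares 1 pair of groups, and lists for each gene the ratio of the group means, on a linear scale, with the p value of its test before any adjustment. They cover 17257 genes for the new-object group over Control, 17521 for Familiar over Control and 17461 for Familiar over the new-object group. Each group enters a pair of tables, so the comparisons share rats. Both quantities are given after upper quartile normalization alone and after removal of k sources of variation unrelated to the groups. The k = 4 setting is used unless another is named. Fold changes are given on the log2 scale. The tables hold 0 columns of values per rat, so neither depth nor the spread between rats can be shown. The error given in their place is the standard error that a log2 fold change and its p value imply together. It is approximate and was computed only for p values up to 0.9. A gene is called a DEG (differentially expressed gene) where the unadjusted p is under 0.01 and the level rose by 25% or more, or decreased to 0.8 of the other group or less. All p values go back to the authors' edgeR tests, and an adjusted p is the Benjamini-Hochberg value over all genes of a table.

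The upstream sequences of 4 members are shown, and how the motifs in them relate to the fold changes was not tested. Syt6 and Esyt1 had the smallest p values of the members in the comparison of Familiar with Control and with the new-object group, respectively. Syt1 and Syn2 are 2 core release genes with a motif of the EGR family of activity-regulated transcription factors. Each is the 250 bases before the transcription start, 5′ to 3′ on the strand of the gene, from RefSeq on the GRCr8 assembly. Capitals mark the EGR motif (GCGNGGGCG) and the GC box (GGGCGG), each searched on both strands.
Syt6 (chr2:193781226-193781475, plus strand): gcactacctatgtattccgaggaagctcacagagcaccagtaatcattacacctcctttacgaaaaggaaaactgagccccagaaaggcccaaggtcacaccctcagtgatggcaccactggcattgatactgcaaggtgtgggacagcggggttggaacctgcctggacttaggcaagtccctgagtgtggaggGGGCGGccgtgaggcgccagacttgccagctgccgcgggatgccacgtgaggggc
Esyt1 (chr7:1530733-1530982, minus strand): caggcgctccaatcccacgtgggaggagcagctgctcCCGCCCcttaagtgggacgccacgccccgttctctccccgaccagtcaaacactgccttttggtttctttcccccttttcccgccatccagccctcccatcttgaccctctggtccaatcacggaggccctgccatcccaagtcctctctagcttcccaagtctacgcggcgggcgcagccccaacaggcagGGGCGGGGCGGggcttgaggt
Syt1 (chr7:46244214-46244463, minus strand): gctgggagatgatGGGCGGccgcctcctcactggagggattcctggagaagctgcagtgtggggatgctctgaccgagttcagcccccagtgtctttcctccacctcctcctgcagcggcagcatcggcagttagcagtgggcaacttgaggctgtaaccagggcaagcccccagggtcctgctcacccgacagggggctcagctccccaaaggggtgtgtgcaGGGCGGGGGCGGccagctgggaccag
Syn2 (chr4:149858669-149858918, plus strand): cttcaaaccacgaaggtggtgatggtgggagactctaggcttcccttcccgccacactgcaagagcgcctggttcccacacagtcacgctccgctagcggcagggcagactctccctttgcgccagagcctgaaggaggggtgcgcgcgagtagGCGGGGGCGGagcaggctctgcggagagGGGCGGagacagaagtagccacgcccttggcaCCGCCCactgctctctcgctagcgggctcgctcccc
In Syt1 and Syn2 the EGR motif overlaps a GC box, so that part of the letters is counted for both. Syt6 and Esyt1 hold GC boxes and no EGR motif in this window. Of the 72 members, 57 matched a RefSeq promoter by symbol. The EGR motif stood in 9 of the 57 (15.8%), namely Snap29, Stxbp5, Syn1, Syn2, Syp, Syt1, Unc13a, Vamp2 and Vamp4, beside 4.79% of 27457 genes. These 27457 are all genes with a RefSeq promoter, measured here or not, while the members all passed the filter on low counts. The GC box stood in 39 of the 57 (68.4%), beside 33.5%. The windows of members were richer in G and C, with a median of 62.4% against 52% for all genes, and how much of the motif counts goes with base content was not tested.

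Most members kept close to their Control level. Within 25% of it were 66 of 72 members in the new-object group and 65 of 72 in the Familiar group, and 68 of 72 differed by less than 25% between the trained groups. Of all genes in the tables, 78.6%, 76.2% and 78.6% lay within the same bounds. The members were also measured with less error, with a median implied standard error of 0.11, 0.10 and 0.10 in the 3 comparisons, against 0.18 over all genes in each. In the new-object group 2 of 72 members were DEGs, beside 2.66% of all genes. They were Esyt3, which was higher (beside 1.09% of all genes), and Syt6, which was lower (beside 1.57%). In the Familiar group 1 of 72, Syt6, was a DEG, beside 3.72% of all genes and 1.89% that were lower. Between the trained groups the only DEG among members was Esyt1, beside 2.5% of all genes and 1.36% that were higher. These shares of 2.78%, 1.39% and 1.39% are near or under the background. With p under 0.01 and no fold minimum, the counts were 6 (8.33%), 3 (4.17%) and 2 (2.78%) of 72 members, beside 3.82%, 5.11% and 3.36% of all genes.

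**Figure D1:**
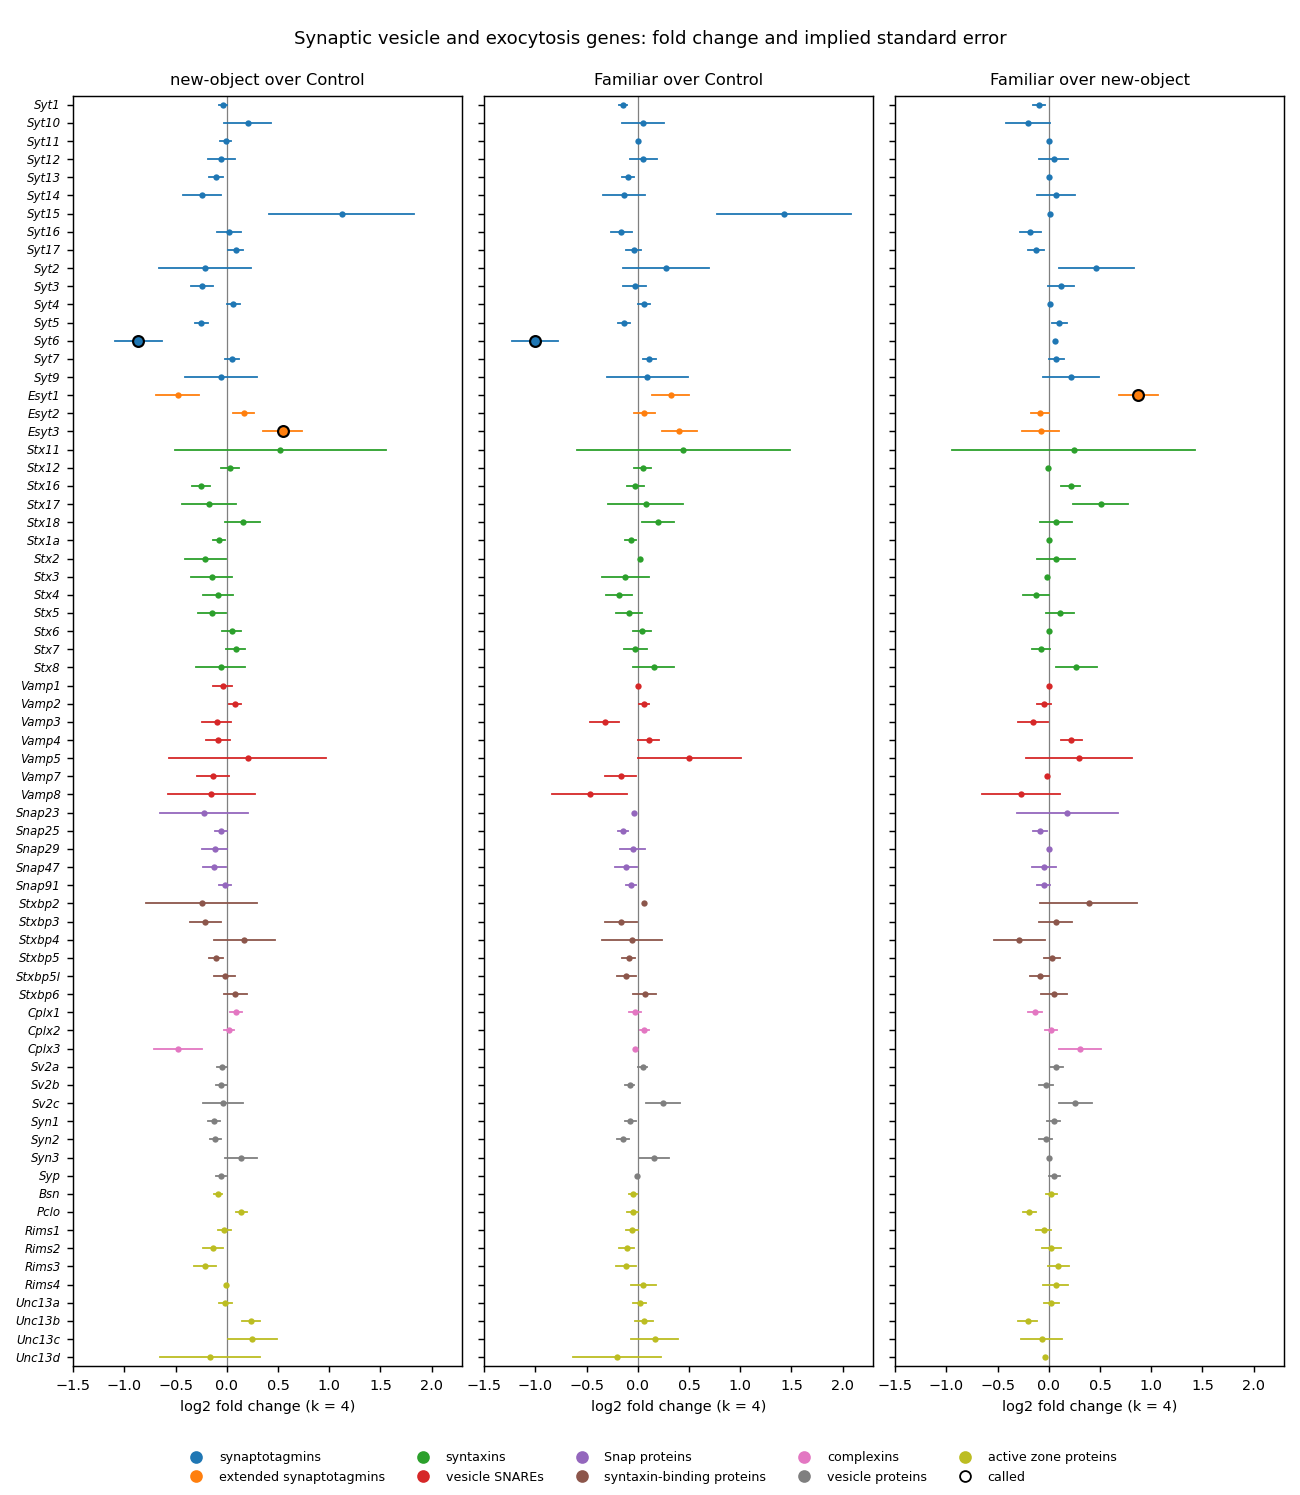
Log2 fold change at k = 4 of 70 of the 72 members (rows, coloured by role) in the 3 comparisons. Points are the fold changes and bars 1 implied standard error, left out where p was above 0.9, and black rings mark DEGs. Most points lie near 0, and the rings lie on Syt6, Esyt1 and Esyt3, whose errors of 0.17 to 0.23 are above the median of the members. Syt15 and Stx11 lie far from 0 with wider ones.

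The median log2 fold change of the members was -0.05 in the new-object group, beside -0.01 for all genes, with 23 members higher and 49 lower than Control. In the Familiar group it was -0.03, beside a median of all genes of 0.0003, with 31 members higher and 41 lower. Between Familiar and new-object rats it was 0.01, the same to 2 decimals as for all genes, with 40 higher and 32 lower. An unadjusted p under 0.05 was reached by 14 of 72 members (19.4%) in the new-object group, beside 10.1% of all genes. Of these 3 were higher and 11 lower, beside 4.58% and 5.56% of all genes. The same count was 8 (11.1%) in the Familiar group, beside 11.9%, and 6 (8.33%) between the trained groups, beside 9.59%. With upper quartile normalization alone the count in the new-object group was 2 of 72, beside 3.4% of all genes. The larger share in the new-object group is therefore present at k = 4, where errors are smaller, and not before sources of variation were removed. After adjustment over all genes, p was under 0.05 for Syt5 and Syt6 in the new-object group (beside 0.869% of all genes), for Syt1 and Syt6 in the Familiar group (1.97%) and for Esyt1 between the trained groups (0.407%). In the new-object group these adjusted values were under 0.05 at k = 4 only. Syt6 in the Familiar group stayed under it at k = 2 and k = 3, Esyt1 at k = 3 and k = 5, and no member did at k = 1 or with upper quartile normalization alone. At k = 5, given for the trained groups alone, Pclo was under it as well.

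**Figure D2:**
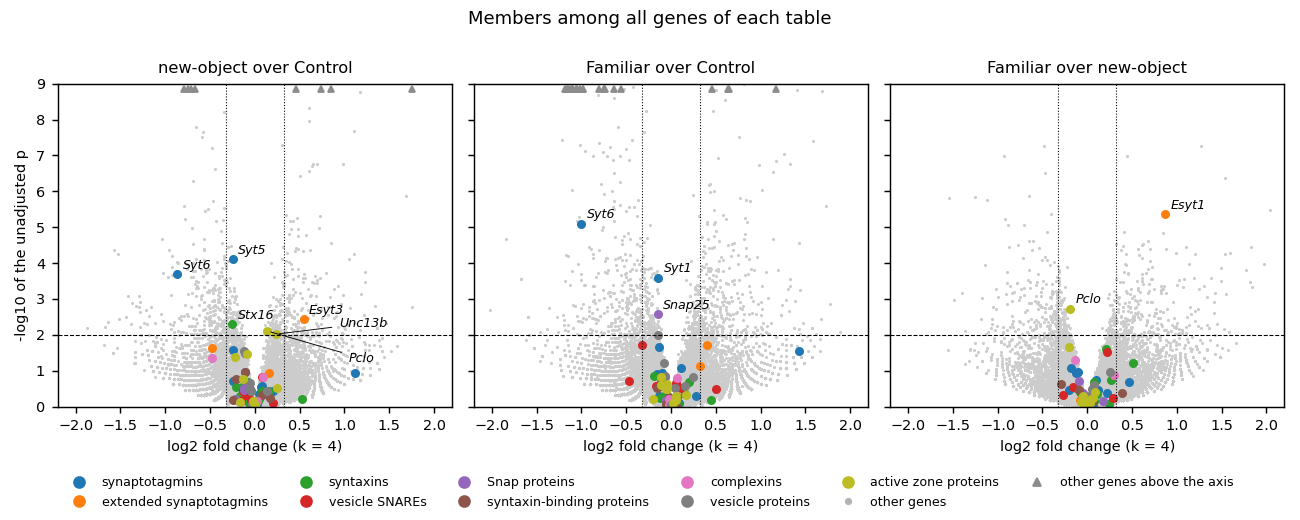
Unadjusted p, as -log10, against log2 fold change at k = 4 for members (coloured by role) and all other genes (grey, triangles where above the axis). Dashed and dotted lines are the p and fold thresholds, and members with p under 0.01 are named. Beyond Syt6, Esyt1 and Esyt3, the named members lie between the fold lines.

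Of the 16 synaptotagmins, the family of calcium sensors, 1 (6.25%) was a DEG in each comparison with Control, Syt6 in both, beside 2.66% of all genes in the new-object and 3.72% in the Familiar group. None was a DEG between the trained groups, beside 2.5%. Syt6 (ENSRNOG00000019163) belongs to a group of synaptotagmins whose members pair through disulphide bonds, and is known for its part in the acrosome reaction of sperm and as a gene of deep-layer cortical neurons. Its log2 fold change over Control was -0.86 ± 0.23 in the new-object group (implied SE, 5 rats over 4; edgeR adjusted p = 0.0322) and -1.0 ± 0.22 in the Familiar group (5 over 4; edgeR adjusted p = 0.00149). Its RNA thus fell by 45.1% and by 50.0% in the trained groups. Between those groups the log2 fold change was 0.06 (edgeR adjusted p = 1). That comparison bounds the difference poorly, since with upper quartile normalization it was -0.12, with an approximate 95% interval from -1.15 to 0.92. Against Control the size held at every setting, from -0.86 to -0.77 in the new-object group and from -1.02 to -0.95 in the Familiar group. The call held in all 5 settings in the Familiar group and at k = 2, 3 and 4 in the new-object group, where the p of the authors' edgeR test was 0.0110 for upper quartile normalization and 0.0145 at k = 1. The control rats enter both comparisons, so the similar size in both is not independent evidence.

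As Syt6 marks deep layers, genes of layer 6 neurons were set beside it, in a list chosen after the values of Syt6 were seen. Of 7 genes found, 6 were lower than Control in each trained group, with a median of -0.38 in the new-object group and -0.27 in the Familiar group. In the new-object group 2 of 7 were DEGs, Rprm (-0.65) and Foxp2 (-0.60), beside 2.66% of all genes, and 0 of 7 with upper quartile normalization alone. No gene of the list was a DEG in the Familiar group, beside 3.72% of all genes. Tle4 had the smallest adjusted p there (-0.27 ± 0.08, edgeR adjusted p = 0.0547), and Foxp2 was the lowest, at -0.43. An unadjusted p under 0.05 was reached there by 5 of 7, 4 lower and 1 higher, beside 11.9% of all genes. With upper quartile normalization alone it was 1 of 7. The gene of the list that was higher than Control in both groups was Ntsr1, at 0.26 and 0.32. Between the trained groups 1 of 7 was a DEG, beside 2.5% of all genes, and 0 of 7 with upper quartile normalization alone. It was Rprm (0.57 ± 0.19 in Familiar over new-object rats, edgeR adjusted p = 0.154), and Nxph4 was at 0.65 ± 0.38 (adjusted p = 0.599). The 6 identifiers for genes of the upper layers had medians of 0.01 and 0.08 over Control, and 1 of 2 identifiers for Cux1 was a DEG in the new-object group (0.41 ± 0.14) and was none with upper quartile alone. The part of the layers in the dissected tissue in the value of Syt6 was not tested.

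Syt1 and Syt5 moved by less. Syt1, the main calcium sensor of fast release in the forebrain, was at -0.14 ± 0.04 in the Familiar group (edgeR adjusted p = 0.0201), or 0.907 of the Control level. The adjusted p was 0.516 at k = 3 and 1 with upper quartile normalization alone, where the error was 0.11 around nearly the same fold change. That is under the 25% minimum, so it was no DEG. In the new-object group it was at -0.04 ± 0.04, and between the trained groups the difference of -0.10 had an approximate 95% interval from -0.22 to 0.02. Syt5, another calcium-binding form, was at -0.25 ± 0.06 in the new-object group (edgeR adjusted p = 0.0180, against 0.223 at k = 3 and 1 with upper quartile alone), or 0.842 of the Control level, and at -0.13 ± 0.06 in the Familiar group (adjusted p = 0.298). The trained groups did not differ for it beyond the error (0.10, approximate 95% interval from -0.05 to 0.24).

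The other synaptotagmins varied mostly within their errors. Syt3, found on endosomes and at the postsynaptic membrane, was at -0.24 ± 0.11 in the new-object group (edgeR adjusted p = 0.399) and -0.03 in the Familiar group. Syt4, an activity-regulated member that binds little calcium, was at 0.06 in both. Syt7, the slow, high-affinity sensor, was at 0.05 and 0.11, and Syt10, which drives release of IGF-1 in olfactory neurons, was at 0.20 and 0.05 with errors of 0.23 and 0.21. Syt2, the fast sensor of many inhibitory and hindbrain neurons, had an error of over 0.4 in both comparisons with Control, at -0.22 and 0.27. Syt15 had the largest fold changes of all members, 1.12 and 1.43, and the smaller of its errors was 0.65. Neither fold change passed the p threshold, and the smaller adjusted p was 0.335, in the Familiar group. Of the 16 synaptotagmins, 10 were lower in the new-object group and 8 in the Familiar group.

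Extended synaptotagmins tether the endoplasmic reticulum to the plasma membrane and pass lipids across the contact, and are not vesicle proteins. Esyt1 (ENSRNOG00000060753), the calcium-activated member, gave the clearest difference between the trained groups. It was at 0.87 ± 0.19 in Familiar over new-object rats (5 over 5; edgeR adjusted p = 0.00596), a level higher by 82.9%. Its p ranked 13th of 17461 genes. Against Control it lay on either side, at -0.48 ± 0.21 in the new-object group (edgeR adjusted p = 0.375) and 0.32 ± 0.18 in the Familiar group (adjusted p = 0.487), and neither was a DEG. The difference between trained groups was called at all 6 settings of its table, from 0.80 to 0.87. With upper quartile normalization alone its p ranked 9th, with an adjusted p of 1.

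Neither Esyt3 nor Esyt2 was a DEG between the trained groups. Esyt3 (ENSRNOG00000022704) rose in the new-object group, by 0.54 ± 0.19 (edgeR adjusted p = 0.169), or 45.9% over Control. It passed both thresholds at k = 4 only. At the other settings it was at 0.48 to 0.59, and the p of the authors' test ran from 0.0130 to 0.0610. In the Familiar group Esyt3 was at 0.40 ± 0.17 (edgeR adjusted p = 0.275), and between the trained groups at -0.08 (approximate 95% interval from -0.43 to 0.27). Esyt2 was at 0.16, 0.06 and -0.09 in the 3 comparisons, with errors of 0.09 to 0.10.

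**Figure D3:**
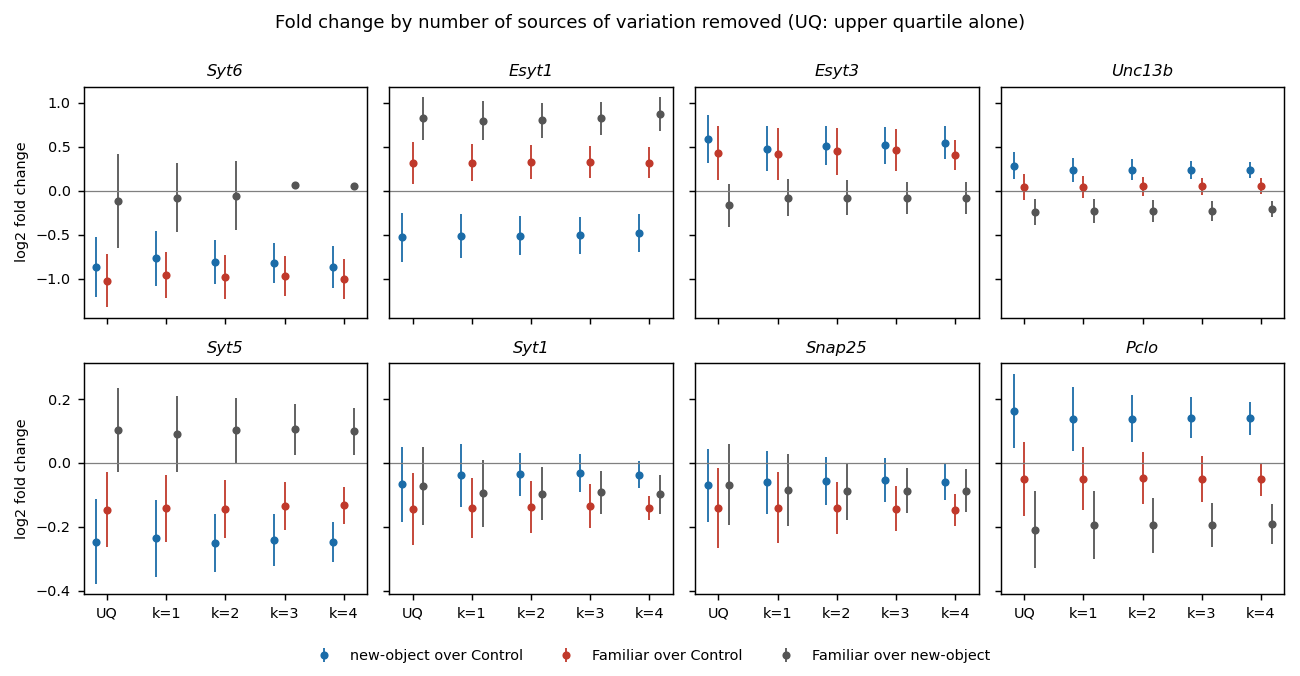
Log2 fold change of 8 members at each normalization setting, from upper quartile alone (UQ) to k = 4, in the 3 comparisons (colours). Bars are 1 implied standard error and are left out where p was above 0.9, and the rows differ in scale. Fold changes stay nearly level from left to right while the bars shorten.

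None of the SNARE genes was a DEG in any comparison. All 5 Snap genes were lower in both comparisons with Control, which share the Control rats. Snap25, the neuronal membrane SNARE, was at -0.15 ± 0.05 in the Familiar group (edgeR adjusted p = 0.0935) and -0.06 in the new-object group, and the trained groups differed by -0.09 (approximate 95% interval from -0.22 to 0.04). Snap91, which shares the symbol but is the clathrin adaptor AP180 of vesicle endocytosis, was at -0.02 and -0.07. Stx1a, a syntaxin of the presynaptic membrane, was at -0.08 ± 0.06 and -0.07 ± 0.06. Stx16, which acts in traffic from endosomes to the Golgi, was at -0.25 ± 0.09 in the new-object group (edgeR adjusted p = 0.193), at -0.03 in the Familiar group and at 0.21 ± 0.09 between the trained groups (adjusted p = 0.415). Of the 14 syntaxins, 9 and 7 were lower in the new-object and Familiar groups and none was a DEG.

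Among the vesicle SNAREs, Vamp2, the main partner of Snap25 in forebrain release, was at 0.08 ± 0.06 and 0.06 ± 0.05 over Control. Vamp1, its counterpart in the hindbrain and spinal cord, was at -0.04 in the new-object group and within 1% of Control in the Familiar group. Vamp3, the broadly expressed form, was at 0.798 of the Control level in the Familiar group (-0.33 ± 0.14, edgeR adjusted p = 0.281). That change is past the fold minimum and not past the p threshold. Vamp4, of the trans-Golgi network and of bulk endocytosis, was at 0.22 ± 0.10 between the trained groups (edgeR adjusted p = 0.451).

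None of the regulators of SNARE assembly was a DEG. Stxbp5 (tomosyn), which restrains release, was at -0.11 and -0.09. None of the 7 syntaxin-binding genes reached a p under 0.05 in any comparison. The complexins Cplx1 and Cplx2, which clamp and then promote fusion, were at 0.09 and 0.02 in the new-object group and at -0.03 and 0.06 in the Familiar group. Cplx1 was at -0.14 ± 0.07 in Familiar over new-object rats (edgeR adjusted p = 0.517). Cplx3, a complexin of ribbon synapses and deep cortical neurons, was at -0.47 ± 0.23 in the new-object group (edgeR adjusted p = 0.465) and at -0.03 in the Familiar group. Between the trained groups it was at 0.30 ± 0.20, with an approximate 95% interval of -0.09 to 0.70 that includes 0.

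Of the 7 proteins of the vesicle itself, 6 were lower in the new-object group and 4 in the Familiar group, and none was a DEG. The synapsins, which hold vesicles in reserve, were at -0.12 for both Syn1 and Syn2 in the new-object group (edgeR adjusted p = 0.400 and 0.421). In the Familiar group they were at -0.07 and -0.15, the latter with an edgeR adjusted p of 0.197. Syn3, which is more prominent in development, was at 0.14 and 0.16 with errors of 0.15 and 0.14. Synaptophysin (Syp), an abundant vesicle membrane protein, was at -0.06 ± 0.05 in the new-object group and within 1% of Control in the Familiar group. Sv2a, the binding site of levetiracetam, and Sv2b were between -0.08 and 0.05 in both, and Sv2c, mainly of the basal ganglia, was at -0.04 and 0.24 with errors of 0.20 and 0.17.

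**Figure D4:**
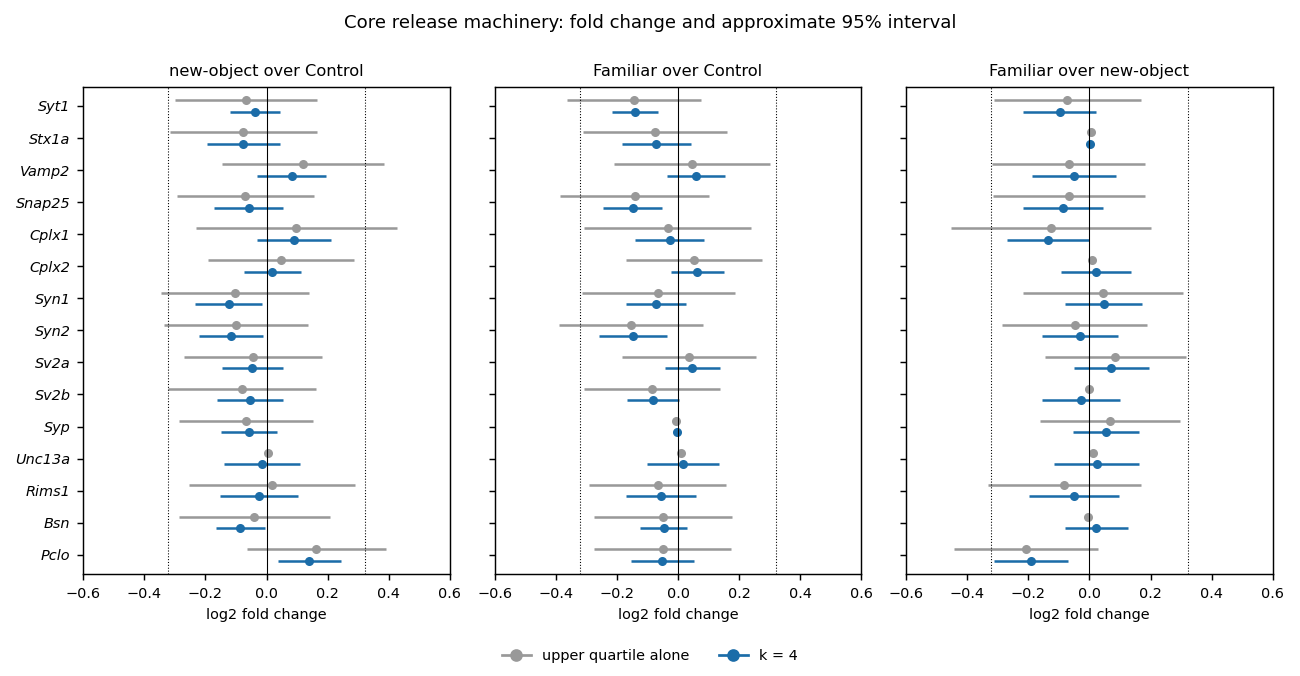
Log2 fold change and approximate 95% interval of 15 core release genes in the 3 comparisons, after upper quartile normalization alone (grey) and at k = 4 (blue), with no interval where p was above 0.9. Dotted lines mark the fold minimum of a DEG in either direction. All points, and every k = 4 interval, lie between the dotted lines.

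Active zone genes held the members with the smallest p between the trained groups after Esyt1. Piccolo (Pclo), a giant scaffold of the active zone, was at 0.14 ± 0.05 over Control in the new-object group (edgeR adjusted p = 0.236) and at -0.05 in the Familiar group. Between the trained groups it was at -0.19 ± 0.06 (edgeR adjusted p = 0.140). Unc13b (Munc13-2), a priming factor, followed the same order, at 0.24 ± 0.09 (edgeR adjusted p = 0.256), 0.06 ± 0.09 and -0.21 ± 0.09 (adjusted p = 0.400). Both pairs of values share the new-object rats, and at k = 4 neither gene passed the fold minimum or the adjustment. At k = 5 Pclo was at -0.19 ± 0.05 between the trained groups (edgeR adjusted p = 0.0161), still short of the fold minimum. With upper quartile normalization alone Pclo was at 0.16 ± 0.12 in the new-object group and -0.21 ± 0.12 between the trained groups, a like size with a larger error.

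Bassoon (Bsn), the scaffold most like Piccolo, was at -0.09 ± 0.04 in the new-object group (edgeR adjusted p = 0.430) and -0.05 in the Familiar group. Rims3, a short form that lacks most domains of its family, was at -0.22 ± 0.11 (edgeR adjusted p = 0.459) and -0.12. Rims1 and Rims2, the long scaffolds that recruit calcium channels, were between -0.13 and -0.02 over Control. Unc13a (Munc13-1), the main priming factor of excitatory synapses, was at -0.01 ± 0.06 and 0.02 ± 0.06. Of the 10 active zone genes 4 had a p under 0.05 in the new-object group, 2 higher and 2 lower, and none in the Familiar group, beside 10.1% and 11.9% of all genes. Before any source was removed it was 0 of 10 in both.

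Over the 15 core genes of docking and fusion the approximate 95% intervals at k = 4 bounded the change to less than the 25% of the call rule in every comparison where an interval could be given. With upper quartile normalization alone the intervals were wider, and reached a fold line for 6 of 14 genes with an interval in the new-object group, 3 of 13 in the Familiar group (Syt1, Snap25 and Syn2) and 3 of 10 between the trained groups. No interval could be given for the rest of the 15. The genes with wide errors were those of low precision outside the core, such as Stx11, Vamp5, Stxbp2 and Unc13d, for which a change of that size was not detectable in these tables.

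Other genes of the vesicle cycle were followed in a list of 69, of which 65 were found. They covered partners of fusion and priming, scaffolds, vesicle membrane proteins, transmitter transporters and endocytosis. In the new-object group 1 of 65 (1.54%) was a DEG, beside 2.66% of all genes. It was Scamp4, a carrier membrane protein of secretory traffic (-0.46 ± 0.17, edgeR adjusted p = 0.238). A p under 0.01 was reached there by 4 of 65 (6.15%), all lower, beside 3.82% of all genes. There was no DEG among them in the Familiar group or between the trained groups, where 5 (7.69%) and 1 (1.54%) of 65 had a p under 0.01, beside 5.11% and 3.36% of all genes. All 3 counts at p under 0.01, and that of DEGs in the new-object group, were 0 with upper quartile normalization alone. Their medians were -0.01, -0.03 and 0.02 in the 3 comparisons. Rab3a, the GTPase that binds Rims at the vesicle and was picked out after its values were seen, was at -0.30 ± 0.05 in the Familiar group (edgeR adjusted p = 1.05e-05) and -0.17 ± 0.06 in the new-object group (adjusted p = 0.135). With upper quartile normalization alone it was at -0.32 ± 0.12 in the Familiar group, with an adjusted p of 0.988. Its change in the Familiar group was just short of the fold minimum. Of the 21 endocytosis genes 19 were lower than Control in the Familiar group, with a median of -0.08, beside 8744 of 17521 genes. Of the 21, 3 (14.3%) had a p under 0.01, Synj1, Cltb and Dnm3, beside 5.11% of all genes. Before any source was removed 17 of 21 were lower in that group and 0 had a p under 0.05. In the new-object group 15 of the 21 were lower at k = 4, with a median of -0.03, beside 8929 of 17257 genes. There 0 of 21 had a p under 0.01, and 4 of 21 (19.0%) had a p under 0.05, all lower, beside 10.1% of all genes. With upper quartile normalization alone 16 of 21 were lower there and 0 had a p under 0.05.

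Markers of cell types were set beside these values. All 10 neuron markers were listed in each table, as the tissue label asks, and 0 of 10 were DEGs in any comparison, with medians of -0.02, 0.00 and -0.01. A p under 0.01 was reached by 2 of 10 (20%) in the new-object group, both higher, beside 3.82% of all genes. In the other comparisons, and in the new-object group with upper quartile normalization alone, it was 0 of 10. Of 8 markers of oligodendrocytes, the myelin-forming cells, 6 were DEGs in the new-object group, all lower (median -0.33, beside 1.57% of all genes), and 3 of 8 in the Familiar group, all lower (median -0.34, beside 1.89%). These counts were 0 and 2 with upper quartile normalization alone, with medians of -0.27 and -0.31. Of the astrocyte markers, 7 of 7 were higher in the new-object group (median 0.16) and 6 of 7 in the Familiar group (median 0.10), with 0 DEGs in either. A p under 0.01 was reached by 3 of 7 (42.9%) in the new-object group, all higher, beside 3.82% of all genes, and by 1 of 7 (14.3%) in the Familiar group, beside 5.11%. Gja1 had the smallest p in both, at 0.22 ± 0.06 (edgeR adjusted p = 0.0354) and 0.23 ± 0.06 (adjusted p = 0.00937). With upper quartile normalization alone 0 of 7 had a p under 0.01 in either group, with medians of 0.17 and 0.09. Of 8 identifiers for meningeal fibroblasts 7 were higher in the new-object group (median 0.18, 0 DEGs) and 6 in the Familiar group (median 0.40). There 3 were DEGs, all higher, beside 3.72% of all genes. The medians with upper quartile normalization alone were 0.38 and 0.40, with 7 of 8 higher and 0 DEGs in each group. The part of these marker values in the values of the members was not tested.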

How the data were processed

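The files used are the authors' 3 deposited tables, 1 for each pair of groups. The authors pooled the reads of 2 chips per sample, aligned them to the rat genome Rnor_6.0 with TopHat and Bowtie2, used HTSeq to count the reads of each gene that mapped once (alignment quality threshold of 10) and tested each pair of groups with edgeR. The strand setting of the counting is not given in the sources used here. The deposited fold change is a linear ratio, made by the authors after upper quartile normalization or after RUVSeq with k = 1 to 4 sources of variation removed, and k = 5 for Familiar over the new-object group. The deposited p values are those of the authors' edgeR tests without adjustment. The direction of each ratio was taken from how the study describes the comparison.

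There were 0 columns of values per sample, so the tests on counts that had been planned for such values could not be run, and the depth of each library is unknown. The labels do not say more of the samples of a group than that they are separate rats. From the tables, log2 fold changes, Benjamini-Hochberg values, implied standard errors (the log2 fold change over the normal quantile of its p) and approximate 95% intervals were computed. At k = 4 more genes pass p under 0.01 (3.36% to 5.11%) than after upper quartile normalization alone (0.493% to 0.993%). The calculations were tested on simulated data with normal errors. That cannot show whether the implied errors hold for the authors' edgeR tests.

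The members and lists were chosen with earlier results of these data known, and the layer lists after the values were seen. Named members are all DEGs, the member with the smallest p in each role and comparison, and a fixed set of core genes, and a few more are named for their ranges. Genes that the authors' filter on low counts removed are not counted. Alternatives were the other k, upper quartile normalization alone, an adjusted p under 0.05, a decrease to 0.75, and, chosen after seeing the data, p under 0.01 without a fold minimum. The single values of 2 members are not reported here. Promoters were matched to RefSeq by symbol, and the genes' positions in Rnor_6.0 were not used here. The tools were pandas 2.3.3, numpy 2.4.6, scipy 1.17.1 and matplotlib 3.10.9 under Python 3.11.15.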

Additional observations from a re-analysis of the deposited data

Results flagged for a closer look

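Esyt1 was flagged because the trained groups differed for it by the authors' edgeR test of that difference itself, with a log2 fold change of 0.87 in Familiar over new-object rats (adjusted p = 0.00596). It was lower than Control in one group (-0.48) and higher in the other (0.32). No sample could be checked for standing apart, since the tables hold no values per rat.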

How the results depend on the processing

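In the new-object group the number of members called was 2 at k = 4. It was 0 after upper quartile normalization alone, 0 at k = 1, 1 at k = 2, 1 at k = 3 and 6 at p under 0.01 without a fold minimum. In the Familiar group it was 1, and became 2 with an adjusted p under 0.05 and 3 without a fold minimum. Between the trained groups it was 1, and 2 without a fold minimum. With an adjusted p under 0.05 the count in the new-object group was also 2, but of Syt5 and Syt6 in place of Syt6 and Esyt3 (adjusted p = 0.169). The calls lost in that group were those of Syt6 at upper quartile and k = 1, and of Esyt3 at upper quartile, k = 1, k = 2, k = 3 and with the adjusted p, with the direction kept. The cause was not tested. Among 533 alternatives for single named members 0 reversed a called value, 6 lost a call and 3 changed sign without a call. The last were all Syt6 between the trained groups (-0.12, -0.08 and -0.05 at upper quartile, k = 1 and k = 2), each well within its own error. The median log2 fold change of the members kept its sign at every setting, from -0.06 to -0.05, -0.03 in all settings, and from 0.0042 to 0.016. The fold changes of the 3 tables, each fitted separately, did not close exactly. The median gap of the members between 1 comparison and the difference of the other two was 0.0054 on the log2 scale for upper quartile values and 0.020 at k = 4, and the largest 0.32.

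No paired analysis was possible because the tables hold no values per sample. Each cage held a rat of the Familiar group and a rat of the new-object group, and what this pairing would change between the trained groups (Esyt1, Pclo) was not tested. For the same reason leaving out each replicate, other normalizations of counts and a filter on low counts were not run. With depth and spread per rat unknown, how precisely a member was measured is known only through its p.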
